A study of Mus musculus with 12 samples.

Results

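The genes described here serve glutathione use, peroxide removal and the transcriptional programme of NRF2. They were taken by symbol from the platform annotation: every gene whose name begins with Gsta, Gstm, Gstp, Gstt, Gsto, Gpx, Prdx or Txnrd, and a fixed set of single genes such as Gclc, Nqo1, Hmox1, Nfe2l2, Keap1 and Tkt. The annotation gave 49 such genes with 82 probes, of 17711 genes with a uniquely named probe. G6pdx and Me1, also in that set, were not analysed here.

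Transcripts were read on 12 bead arrays from 6 mouse cell lines, each derived from a tumour. Lines 1, 2 and 3 of one genotype carry wild-type STAT3, and another 3 lines, numbered likewise, carry a constitutively active form of this transcription factor. Each line has 2 replicate arrays, and all lines share the same untreated culture in RPMI medium with foetal calf serum. The labels do not state the tumour tissue, the age of the animals, how the active STAT3 was introduced or whether a line is a single clone. They are also silent on whether both arrays of a line had their own culture; p-values built on these arrays measure only how arrays of 1 line scatter, and that scatter may be technical.

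Glutathione is a tripeptide thiol that glutathione transferases attach to reactive compounds and that glutathione peroxidases spend on peroxides. Peroxiredoxins and thioredoxin do the same work through protein thiols, and NADPH from the pentose phosphate pathway recharges both systems. The transcription factor NRF2 (gene Nfe2l2) is held down by KEAP1, which delivers it to a ubiquitin ligase; when KEAP1 is modified by oxidants or electrophiles, NRF2 accumulates and binds antioxidant response elements of many of these genes together with small MAF proteins.

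The core of that element was looked for in RefSeq promoter windows of the GRCm38.p6 assembly, which run from 250 bases before to 50 bases after a gene's start. It was spelled TGACNNNGC, or GCNNNGTCA when read on the other strand. Windows were at hand for 44 members, and 10 of them held the core (22.7%), against 3781 of 27025 genes with a window (14%). Among tested genes the shares were 6 of 27 members (22.2%) and 1010 of 6019 genes (16.8%). A match in this window is a description of letters, not of a bound site. The stretches shown are those of the tested members in which the core lay before the start, because these are the members whose signals can be set beside a textbook element; they are written along the gene's strand, 5′ to 3′, with the core in capitals.
Gclm, chr3:122245398-122245456, plus strand: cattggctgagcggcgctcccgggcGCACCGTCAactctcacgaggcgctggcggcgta
Gsta3, chr1:21240439-21240497, plus strand: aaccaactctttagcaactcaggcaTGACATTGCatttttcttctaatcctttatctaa
Gstm5, chr3:107895787-107895845, plus strand: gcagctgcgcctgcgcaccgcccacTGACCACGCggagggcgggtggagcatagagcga
Prdx1, chr4:116685441-116685499, plus strand: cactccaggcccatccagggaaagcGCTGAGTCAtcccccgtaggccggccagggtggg
Sod1, chr16:90220681-90220739, plus strand: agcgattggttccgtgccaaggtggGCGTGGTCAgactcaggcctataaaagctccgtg

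The core began 134 bases before the start of Gclm, 121 before Gsta3, 42 before Gstm5, 133 before Prdx1 and 56 before Sod1. In Srxn1 it lay after the start. The window of Nqo1 did not hold these letters. No window was at hand for Gclc, Gsr, Gsta4, Gstt2 and Hmox1, so these members were not searched.

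Signals are log2 values after background correction and quantile normalization, and a probe counts as detected where its detection p was under 0.01. Each array detected 11002 to 12798 of its 46632 probes, and the correlation across tested genes between the arrays of a line was 0.993 to 0.998. Of 4 epithelial markers, 3 (Krt8, Krt18, Cdh1) were detected on all arrays and Epcam on none, with a summed level of 14.56 to 14.83 on wild-type and 14.54 to 14.98 on constitutively active arrays. Fibroblast Pdgfra and endothelial Kdr were also detected on all 12 arrays. Detected on no array were 4 of 6 fibroblast, 3 of 4 leukocyte and 3 of 4 endothelial markers on the array; their summed levels were 8.72 to 8.87 and 8.73 to 9.05 for fibroblast, 8.02 to 8.67 and 7.99 to 8.06 for leukocyte, and 8.44 to 8.71 and 8.49 to 8.76 for endothelial markers on wild-type and constitutively active arrays.

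A gene was tested if a probe of it was detected on both arrays of at least 3 lines, and then by its brightest such probe. This left 31 of the 49 members (63.3%), as against 41.3% of all named genes. Another 13 members were detected on no array (26.5%, against 52.4% of all named genes): Gclc, Cat, Pgd, Txn1, Txnrd1, Gpx5, Gpx6, Gpx7, Gsta1, Gstm3, Gsto2, Gstp3 and Gstt4. The remaining 5 were detected on few arrays, namely Nfe2l2 on 3 wild-type arrays, Gpx3, Prdx2 and Gsta2 on 2 arrays each and Gstm7 on 1. An undetected probe does not show that a transcript is absent: Sod1 has 2 probes detected nowhere beside one that read 12.40 to 12.82 on the 12 arrays, and Nqo1 has a second probe that stayed undetected on the arrays where the first was brightest.

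The lines differed most in Nqo1, Hmox1 and several glutathione transferases, and least in Tkt, Prdx3 and Sod1. Of the 31 tested members 26 passed an F test for any difference among the 6 lines (limma, adjusted p under 0.05), against 77.7% of all 7306 genes tested. For 12 members the line means also spanned over 1 log2 unit, a combination met by 20.4% of all genes. That count depends on the scaling. It was 11 with median scaling, against 27.9% of all genes, and 10 on the deposited values, against 11.7%. With median scaling the F test called 19 members and 57.4% of all genes, and the calls of Gclm, Gss, Gsta4, Keap1, Prdx1, Prdx4 and Sod1 were lost. The median range of line means was 0.88 over the members and 0.58 over all genes. Genotype took 13.3% of the members' variation, the line within its genotype 82.2% and the replicate array 4.52%. Over all genes the shares were 15.3%, 78.9% and 5.75%. They pool squared deviations over genes, so genes of wide range such as Nqo1, undetected in some lines, weigh most. There were more lines than genotypes, and the shares are not adjusted for this, so their sizes cannot be set against each other directly. Fewer cells carrying a transcript and less of it per cell cannot be told apart in such bulk RNA.

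**Figure D1:**
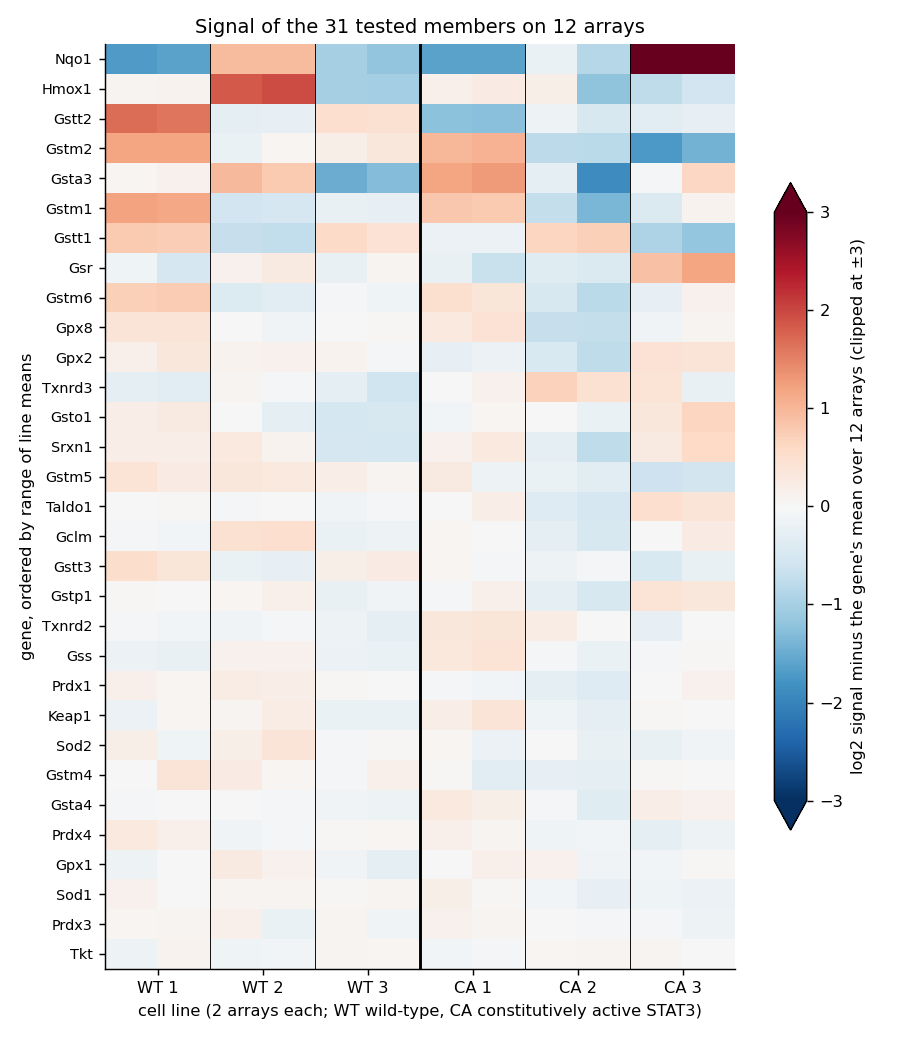
Heat map of the 31 tested members (rows, ordered by the range of their line means) on the 12 arrays (columns, 2 for each line), coloured by log2 signal minus the gene's own mean over the 12 arrays. Strong colours are limited to the upper rows and change from line to line within each genotype; the lowest rows, such as Prdx3 and Tkt, are almost white.

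**Figure D2:**
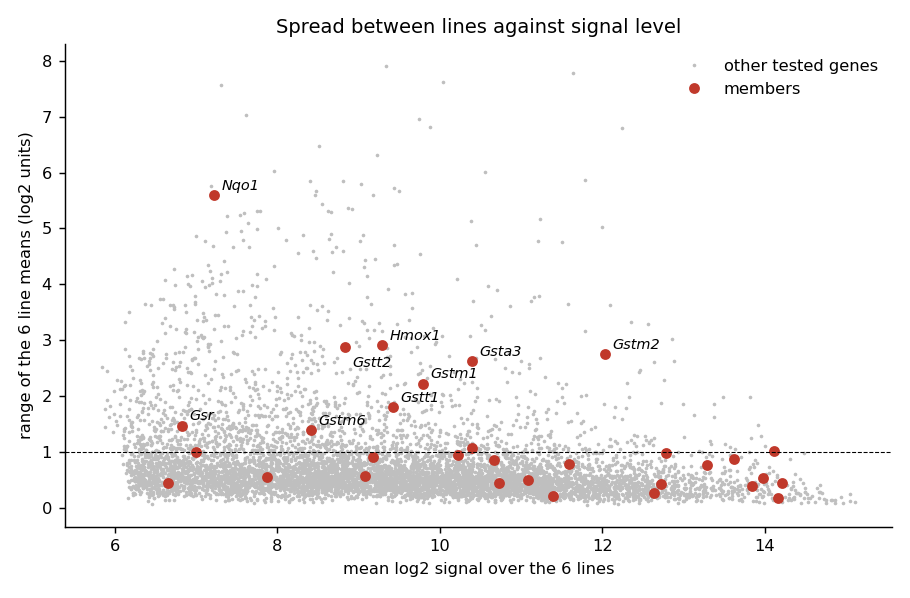
Range of the 6 line means (vertical axis, log2 units) against mean log2 signal (horizontal axis) for every tested gene in grey and for the 31 members in red; the dashed line marks 1 log2 unit. Nqo1 lies highest among the members, at a plotted range of 5.59 whose low end was not detected, and members with mean signals above 12.5 lie close to or below the dashed line.

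Among the regulators Keap1, the repressor of NRF2, was measured well and varied little. Keap1 averaged 11.03, 11.23 and 10.88 in wild-type lines 1, 2 and 3 and 11.38, 10.88 and 11.10 in constitutively active lines 1, 2 and 3. The range was 0.50 (limma adjusted p = 0.00552), and all 3 kept probes were highest in constitutively active line 1. With median scaling in place of quantile normalization the F test did not pass (adjusted p = 0.186). Nfe2l2 itself did not reach the filter, so no level of the NRF2 transcript is compared.

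Nqo1, a quinone reductase that is the usual readout of NRF2 activity, had the widest range of all members. Its 12 array values were 5.51 and 5.61, 8.18 and 8.16, and 6.22 and 6.03 in wild-type lines 1 to 3, and 5.61 and 5.61, 7.02 and 6.37, and 10.85 and 11.46 in constitutively active lines 1 to 3. Constitutively active line 3 stood 7.92-fold above the next line, wild-type line 2. It was detected on no array of wild-type lines 1 and 3 or of constitutively active line 1, and constitutively active line 3 was at least 31.2-fold brighter than wild-type line 1 (limma adjusted p of the 6-line F test = 2.94e-09). For that bound each dim array was given the lowest signal of any detected probe, or the Nqo1 signal where this was higher. It depends on the background correction: the same bound was 21.6-fold with an offset of 50 and 12.1-fold on the deposited values.

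Hmox1 encodes haem oxygenase 1, which breaks down haem and also answers to NRF2 and to the repressor BACH1. It was highest in another line than Nqo1. The arrays read 9.36 and 9.39, 11.14 and 11.25, and 8.30 and 8.28 in the wild-type lines, and 9.44 and 9.54, 9.47 and 8.08, and 8.53 and 8.72 in the constitutively active lines. Wild-type line 2 stood 3.27-fold above the next line and 7.51-fold above wild-type line 3 (limma adjusted p = 5.67e-05). The constitutively active lines did not pass among themselves (limma adjusted p = 0.0512), and the arrays of line 2 in that group lay 1.38 log2 units apart.

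**Figure D3:**
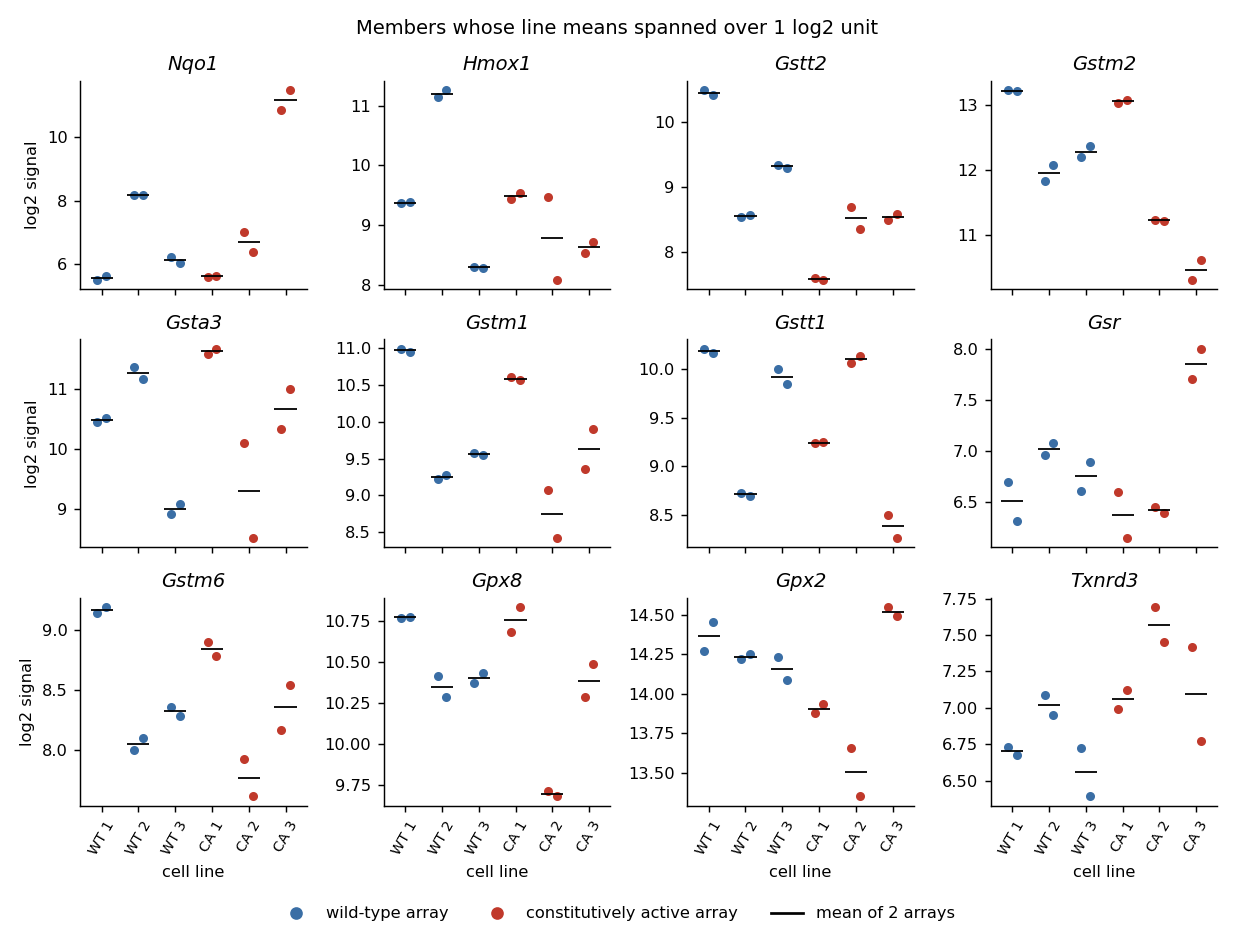
Log2 signal (vertical axes, each panel with its own scale) of the 12 members whose line means spanned over 1 log2 unit, by cell line; points are single arrays, blue for wild-type (WT) and red for constitutively active (CA) lines, and bars are the mean of 2 arrays. The highest line differs from gene to gene: CA 3 for Nqo1, Gsr and Gpx2, WT 2 for Hmox1, WT 1 for Gstt2 and the Gstm genes, CA 1 for Gsta3.

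In glutathione synthesis and recycling all 3 tested genes passed the 6-line test, as did 77.7% of all genes, each of the 3 with another line on top. Gclm, the modifier subunit of the rate-limiting ligase, was highest in wild-type line 2, and its window held the core shown above. The array values were 10.60 and 10.58, 11.12 and 11.16, and 10.45 and 10.50 in wild-type lines. In constitutively active lines Gclm read 10.72 and 10.66, 10.38 and 10.18, and 10.68 and 10.90. Its range was 0.86 (limma adjusted p = 0.000192), a 1.81-fold difference, which did not pass with median scaling (0.395). Gss, glutathione synthetase, stood at 7.69, 8.01 and 7.69 in wild-type and 8.24, 7.76 and 7.88 in constitutively active lines, a range of 0.55 (limma adjusted p = 0.000812, and 0.0762 with median scaling).

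Gsr, the reductase that returns oxidised glutathione to its thiol form, was dim in most lines and highest in constitutively active line 3. Its arrays read 6.70 and 6.32, 6.96 and 7.08, and 6.61 and 6.90 in the wild-type lines, and 6.60 and 6.15, 6.45 and 6.39, and 7.70 and 7.999 in the constitutively active lines. Constitutively active line 3 lay 1.78-fold above wild-type line 2 and did not overlap with any other line (limma adjusted p = 8.54e-05), whereas the wild-type lines did not pass among themselves (0.0686). On the deposited values its range was 0.75 in place of 1.47.

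The mu class transferases, Gstm1 to Gstm7, stand next to each other in the genome, 7 neighbours in the RefSeq order of protein-coding genes, and 5 of them were tested. Gstm2 had the widest range of these. Its arrays read 13.22 and 13.21, 11.83 and 12.08, and 12.19 and 12.36 in wild-type lines and 13.03 and 13.08, 11.24 and 11.21, and 10.31 and 10.61 in constitutively active lines. Wild-type line 1 and constitutively active line 1 were high and constitutively active line 3 lowest, 6.73-fold below the top (limma adjusted p = 1.02e-08). Its 3 kept probes gave ranges of 2.54 to 3.13 with the same highest and lowest line.

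Gstm1 and Gstm6 shared with Gstm2 the peak in wild-type line 1, followed by constitutively active line 1. Gstm1 read 10.99 and 10.95, 9.23 and 9.28, and 9.58 and 9.55 in wild-type lines, and 10.61 and 10.57, 9.08 and 8.42, and 9.35 and 9.90 in constitutively active lines, a 4.67-fold range (limma adjusted p = 8.41e-06). Gstm6 averaged 9.16, 8.05 and 8.32 in wild-type and 8.84, 7.77 and 8.36 in constitutively active lines, a 2.63-fold range (2.02e-05). Both differed from Gstm2 in constitutively active line 3, which was not their lowest line. With median scaling wild-type line 2 was their lowest line in place of constitutively active line 2. Whether probes of these similar genes read each other's transcripts was not tested.

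Gstm5, a neighbour of this group whose window held the core shown above, and Gstm4 did not follow that order. Gstm5 averaged 9.51, 9.49 and 9.32 in wild-type and 9.24, 8.93 and 8.59 in constitutively active lines (range 0.92, limma adjusted p = 0.000363). Gstm4 was near background, at 6.85, 6.81 and 6.72 in wild-type and 6.50, 6.40 and 6.67 in constitutively active lines, and did not pass (0.0762).

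The theta class genes are neighbours too. All 3 tested were highest in wild-type line 1, followed among wild-type lines by line 3 and then line 2, and their order differed in the constitutively active lines. Gstt2 read 10.50 and 10.43, 8.53 and 8.57, and 9.34 and 9.30 in wild-type lines, and 7.60 and 7.57, 8.68 and 8.36, and 8.49 and 8.58 in constitutively active lines. Wild-type line 1 stood 2.21-fold above wild-type line 3 and 7.38-fold above constitutively active line 1, the lowest (limma adjusted p = 8.77e-09; 4.86-fold on the deposited values). Gstt1 read 10.21 and 10.16, 8.72 and 8.70, and 9.999 and 9.85 in wild-type lines, and 9.24 and 9.25, 10.07 and 10.14, and 8.50 and 8.26 in constitutively active lines.

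Gstt1 was high in wild-type lines 1 and 3 and constitutively active line 2 and lowest in constitutively active line 3, a 3.50-fold range (limma adjusted p = 3.6e-08). With median scaling its highest line was constitutively active line 2. Gstt3, the other theta gene tested, spanned 0.79, from 11.24 to 12.04.

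In the alpha class Gsta3, whose window held the core shown above, spanned 2.63. Gsta4, known for its work on lipid peroxidation products, spanned 0.44. Gsta3 read 10.46 and 10.52, 11.37 and 11.17, and 8.92 and 9.08 in wild-type lines, and 11.59 and 11.67, 10.10 and 8.52, and 10.33 and 11.01 in constitutively active lines. Constitutively active line 1 was on top and wild-type line 3 lowest, 6.19-fold apart (limma adjusted p = 0.000274). Gsta4 stood at 14.01 to 14.45 over lines (0.0125, and 0.166 with median scaling).

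The tested pi and omega class genes, Gstp1 and Gsto1, were detected on all arrays and highest in constitutively active line 3. Gstp1 averaged 13.32, 13.40 and 13.12 in wild-type and 13.35, 12.90 and 13.68 in constitutively active lines (range 0.78, limma adjusted p = 0.000504), and its 3 kept probes named the same highest and lowest line. Gsto1 stood at 13.02, 12.65 and 12.28 in wild-type and 12.76, 12.68 and 13.27 in constitutively active lines (range 0.99, 0.000409).

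Of 7 glutathione peroxidases 3 were tested. Gpx2, the epithelial form and another classical NRF2 target, stood at 14.36, 14.23 and 14.16 in wild-type and 13.91, 13.50 and 14.52 in constitutively active lines. The range was 1.01 (limma adjusted p = 9.05e-05), set by constitutively active lines 2 and 3, and the wild-type lines did not pass among themselves (0.296). Gpx8, a peroxidase of the endoplasmic reticulum, spanned 1.08, with constitutively active line 2 lowest at 9.71 and 9.68 on its arrays against at least 10.28 on every other array (1.44e-05). Gpx1, the common cytosolic form, stood at 13.77, 14.05 and 13.65 in wild-type and 13.94, 13.86 and 13.82 in constitutively active lines and did not pass (0.0673).

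The tested peroxiredoxins varied little. Prdx1, whose window held the core shown above, stood at 14.07, 14.18 and 13.999 in wild-type and 13.90, 13.65 and 14.05 in constitutively active lines. The range was 0.53 (limma adjusted p = 0.00231, and 0.741 with median scaling). Prdx4 of the secretory pathway spanned 0.44 and passed (0.00827, and 0.19 with median scaling), and Prdx3 of mitochondria spanned 0.21 and did not (0.508). Srxn1, sulfiredoxin, which repairs overoxidised peroxiredoxins, moved more, at 10.41, 10.43 and 9.71 in wild-type and 10.43, 9.71 and 10.65 in constitutively active lines. Its range was 0.94 (0.000411), and all 3 kept probes were highest in constitutively active line 3.

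Of the thioredoxin reductases the mitochondrial Txnrd2 spanned 0.57 (limma adjusted p = 0.00604). Txnrd3, expressed mainly in testis as far as is known, was near background. The lines averaged 6.70, 7.02 and 6.56 in wild-type and 7.06, 7.57 and 7.10 in constitutively active lines (range 1.01, 0.00437, and a range of 0.52 on the deposited values).

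The superoxide dismutases varied little too. Sod1, the cytosolic enzyme, stood at 12.71, 12.72 and 12.69 in wild-type and 12.74, 12.47 and 12.48 in constitutively active lines, a range of 0.27 (limma adjusted p = 0.0357) whose call was lost in 9 of 12 fits that each left out 1 array. Sod2, the mitochondrial enzyme, stood at 10.76, 11.01 and 10.73 in wild-type and 10.67, 10.62 and 10.56 in constitutively active lines and did not pass (0.0823). Among the members of the pentose phosphate pathway Tkt, transketolase, did not pass (range 0.18, 0.427). Taldo1, transaldolase, spanned 0.88, from 13.18 in constitutively active line 2 to 14.06 in line 3 of that genotype (0.000144).

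Read by line, constitutively active line 3 was the highest line for 7 of 31 members (22.6%, against 26.6% of all genes): Nqo1, Gsr, Gpx2, Gsto1, Srxn1, Taldo1 and Gstp1. These 7 were highest there with quantile normalization, median scaling and the deposited values alike. The same line was the lowest for 7 others, among them Gstm2, Gstm5, Gstt1 and Gstt3. Wild-type line 1 was highest for 10 members (32.3%, against 16.4%), of which 8 were mu or theta transferases. Constitutively active line 2 was lowest for 13 members (41.9%, against 19.7% of all genes), but with median scaling for 3 members, where 2.37% of all genes were lowest in that line. Of the 12 members with a range over 1 the highest line was the same under these 3 scalings for 10 and the lowest for 10.

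The arrays of constitutively active lines 2 and 3 disagreed on some of these genes. In line 2, array 2 read lower than array 1 for 27 of 31 members, against 55.1% of all genes. With median scaling it did so for 26 (54.2% of all genes), but that scaling left shifts between arrays of other lines. Array 2 then read lower for 31 members in wild-type line 2 (98.9% of all genes) and 25 in constitutively active line 1 (90.2%). In wild-type lines 1 and 3 it did so for 6 (17.5%) and 10 (34.9%). The gap in constitutively active line 2 was largest for Gsta3 (10.10 and 8.52, a 2.99-fold difference) and Hmox1 (9.47 and 8.08, 2.61-fold), followed by Gstm1, Nqo1 and Srxn1. In line 3 the gaps of Gsta3, Gstm1 and Nqo1 were 0.68, 0.54 and 0.61 in size, with array 2 the higher. Txnrd3 differed by 0.65 there, with array 1 the higher. In the other 4 lines no member had arrays over 0.5 apart, and over all genes such gaps were met by 3.68% in line 2, 2.75% in line 3 and 0.205% to 2.37% elsewhere. The part of culture, labelling or hybridisation in these gaps was not tested.

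**Figure D4:**
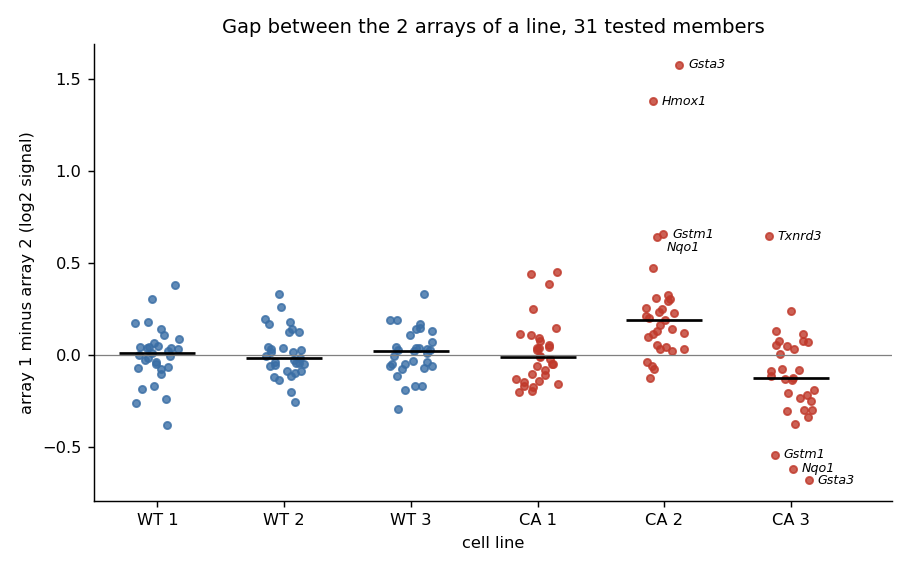
Log2 signal of array 1 minus array 2 (vertical axis) for each of the 31 tested members (points) in each line (horizontal axis), with the median as a bar and gaps over 0.5 named. Points lie mostly above 0 in constitutively active line 2 (CA 2; median 0.19) and below 0 in CA 3 (median -0.12), and near 0 in the others.

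The order of lines for Gsta3 and Hmox1 depends on these arrays. Without array 2, constitutively active line 2 would stand at 10.10 for Gsta3 and 9.47 for Hmox1, and without array 1 at 8.52 and 8.08, the lowest of all lines for each gene. The number of members lowest in that line was 9 without array 2 (19.7% of all genes) and 17 without array 1 (21.9%). The 6-line F test called 26 and 27 members, and the test among constitutively active lines 23 and 25. With all arrays in the fit, 77.7% and 61.0% of all genes passed these tests.

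Within a genotype, 16 of 31 members differed among the wild-type lines (46.4% of all genes) and 25 among the constitutively active lines (61.0% of all genes), by the F test of limma with adjusted p under 0.05. With median scaling the counts were 11 and 16, against 24.3% and 37.6% of all genes. Differences between lines that share their STAT3 status were thus common: among wild-type lines Hmox1 spanned 8.29 to 11.20 (limma adjusted p = 3.35e-05) and Gstt2 8.55 to 10.46 (1.1e-07), and among constitutively active lines Nqo1 went from undetected in line 1 to 11.15 in line 3 (2.61e-09) and Gstm2 10.46 to 13.05 (1.81e-08).

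Between the genotypes no member passed. The comparison used line means, 3 lines against 3, and limma called 0 of 31 members and 0.00% of all genes; 2 members had an unadjusted p under 0.05 (5.60% of all genes), and the 12 arrays with the line as a random block also gave 0. The median log2 difference, constitutively active minus wild-type, was -0.13 over the members and 0.01 over all genes, with 14 members above and 17 below 0. With median scaling the medians were 0.11 and 0.21, with 20 above and 11 below, so directions hold only relative to the scaling.

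For 5 members all lines of one genotype lay above those of the other, against 12.4% of all genes. With active STAT3 1 of them was higher and 4 were lower, against 5.97% and 6.47% of all genes. With median scaling 4 were higher and 1 lower, where 22.7% and 1.44% of all genes were. For single genes no exact permutation test is given, since p = 0.1 is the smallest that 3 lines a side allow. Gstt2 averaged 9.44 ± 0.96 in wild-type and 8.21 ± 0.55 in constitutively active lines (SD, n = 3 lines each), a log2 difference of -1.23 with a standard error of 0.53 (limma adjusted p = 0.854). Gstm5 averaged 9.44 ± 0.10 and 8.92 ± 0.32 (SD, n = 3 lines each; limma adjusted p = 0.854). Their lines overlapped with median scaling, with differences of -1.04 and -0.32. Without wild-type line 1 the difference of Gstt2 was -0.72.

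Sod2 averaged 10.84 ± 0.16 in wild-type and 10.62 ± 0.05 in constitutively active lines (SD, n = 3 lines each; limma adjusted p = 0.892), and its difference of -0.22 became 0.01 with median scaling and -0.13 without wild-type line 2. Gstm4 averaged 6.79 ± 0.06 and 6.52 ± 0.13 (SD, n = 3 lines each; limma adjusted p = 0.854), close to background. Txnrd3 was the member on the higher side, averaging 6.76 ± 0.24 without and 7.24 ± 0.29 with active STAT3 (SD, n = 3 lines each; limma adjusted p = 0.854), and its difference of 0.48 was 0.32 without constitutively active line 2. Nqo1, the member with the largest mean difference towards the constitutively active lines, averaged 7.82 ± 2.94 against 6.62 ± 1.37 (SD, n = 3 lines each; limma adjusted p = 0.954), and line 3 was the only constitutively active line above the highest wild-type line.

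**Figure D5:**
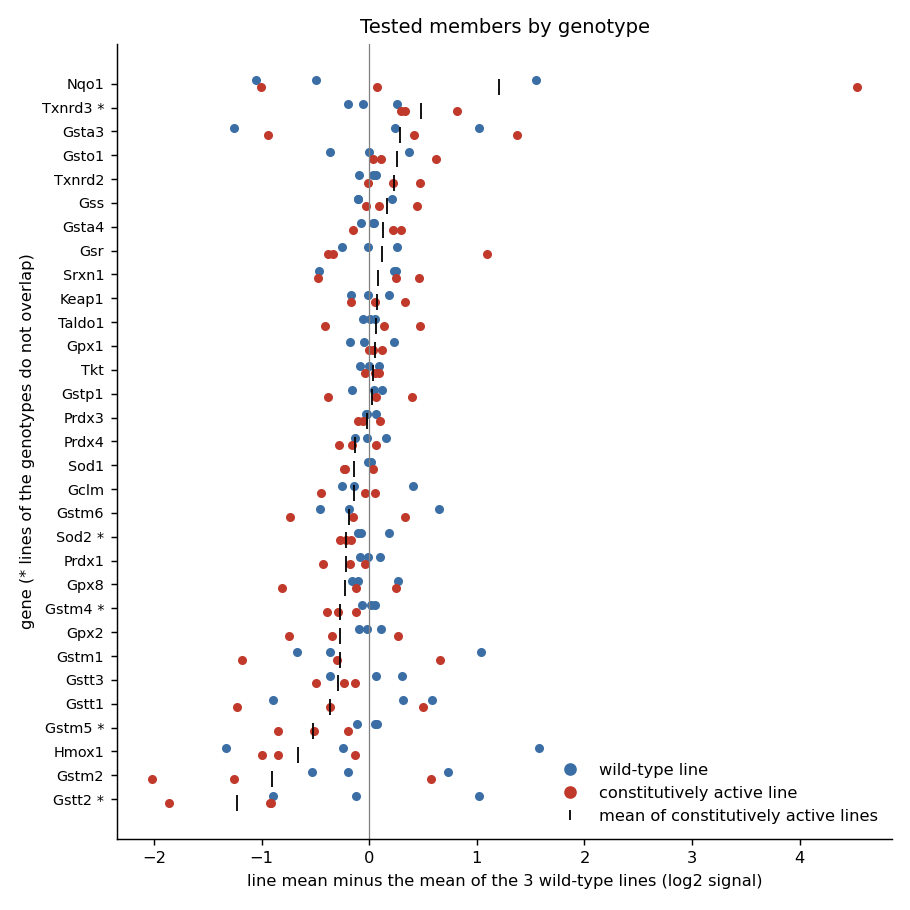
Line means of the 31 tested members (rows) minus the mean of the 3 wild-type lines (horizontal axis, log2 signal); blue points are wild-type lines, red points constitutively active lines and black ticks their mean, and asterisks mark the 5 members whose genotypes do not overlap. Most rows show red and blue points mixed, and the tick of Nqo1 at 1.20 rests on a single red point beyond 4.

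The other genes of the pathway were read from a list of 57 symbols, of which 55 had a probe and 37 were tested. By the 6-line F test 30 of the 37 passed (77.7% of all genes), and 12 also had a range over 1 (20.4% of all genes). By genotype 0 passed, and 2 were without overlap on the higher and 4 on the lower side, against 5.97% and 6.47% of all genes. The widest range was that of Aldh3a1, an aldehyde dehydrogenase. It stood at 4.91 in wild-type line 1, where it was not detected, and at 9.07 and 9.63 in wild-type lines 2 and 3, and at 8.55, 10.20 and 9.61 in constitutively active lines. Constitutively active line 2 was at least 16.2-fold brighter than wild-type line 1 (limma adjusted p = 2.26e-08), a bound that was 6.45-fold on the deposited values.

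Akr1b8, an aldo-keto reductase, was like Nqo1 highest in constitutively active line 3 and undetected in wild-type line 1. It averaged 4.84, 8.08 and 6.24 in wild-type and 7.16, 6.20 and 8.86 in constitutively active lines. In wild-type line 3 and in constitutively active line 2 only 1 of 2 arrays detected it. Constitutively active line 3 was at least 6.36-fold brighter than wild-type line 1 (limma adjusted p = 4.02e-09). On the deposited values that bound was 2.93-fold. Osgin1, a growth inhibitor induced by oxidative stress, was highest in constitutively active line 3 too, at 9.14 and 9.61 on its arrays. Elsewhere it read 7.77 to 8.60 (limma adjusted p = 0.000595), and its arrays in constitutively active line 2 read 8.60 and 7.89.

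Other members of the list ran differently. Mgst2, a microsomal transferase of leukotriene synthesis, was lowest in constitutively active line 3, where 1 of 2 arrays detected it, at 6.20 against 8.37 in line 2 of that genotype (limma adjusted p = 3.88e-05). The range of 2.17 was 1.15 on the deposited values. Gstk1, the mitochondrial kappa class transferase, peaked in wild-type line 2 at 9.55 and was lowest in constitutively active line 2 at 7.84 (4.43e-05). Rpe, an epimerase of the pentose phosphate pathway, stood at 9.09, 8.58 and 8.18 in wild-type and 7.94, 7.93 and 7.47 in constitutively active lines (1.58e-07 over lines). Its genotypes did not overlap, and the genotype difference of -0.84 did not pass (limma adjusted p = 0.854). The tested small MAF genes, partners of NRF2, varied little: Mafg spanned 0.12 and Maff 0.24, and neither passed. Mafk, another of them, was detected on no array and was not tested.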

How the data were processed

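The deposited raw table gives, per the file headers, a linear intensity per probe, summarised over its beads, and a detection fraction for 46632 probes on 12 arrays; 1 minus that fraction was used as the detection p, since the fraction increased with the signal. The deposited series matrix holds the authors' processed log2 values. BeadStudio 3.1.7 and lumi are named, per the submitters' processing notes; the labels say nothing of the authors' background correction and normalization.

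Signals were corrected by limma 3.58.1 in R 4.3.3 (normal-exponential model on detection p, offset 16), quantile normalized and log2 transformed. The filter left 11650 probes and 7306 genes. The offset understates folds of dim genes. The genotype test compared line means (lmFit, eBayes); F tests used the 12 arrays with arrays of a line as residual; Benjamini-Hochberg adjustment covered all genes. The code was tested on simulated data. The number of arrays limits the precision.

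Members and lists were chosen with earlier results of these data known. Values of every line were planned for the 15 members of widest range, members whose genotypes do not overlap, 20 fixed genes (of which Gpx4, G6pdx and Me1 were not analysed here) and the 6 widest of the other pathway list. Gstt3, Gsta4, Prdx3, Prdx4, Txnrd2, Taldo1, Tkt, Mafg and Maff were chosen after their values were seen. Alternatives covered scaling, offset, filter, probe choice, blocks and left-out lines or arrays; folds on the deposited values were added after seeing the data.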

Additional observations from a re-analysis of the deposited data

How the results depend on the processing

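Median scaling moved the most values: it called 1778 genes among wild-type lines and 2746 genes and 16 members among constitutively active lines, where quantile normalization called 3392, 4454 and 25, it left 4 members higher and 1 lower without overlap between genotypes, and it turned the genotype difference of Sod2 to 0.0138. Without overlap, 2 members were higher without the filter on dim probes, where 49 members were tested, and 2 with the mean of kept probes. For these settings too the share over all genes was not computed. Leaving out 1 line gave 1 to 4 members higher and 4 to 8 lower without overlap, and 0 to 2 genes called between genotypes (2 without wild-type line 2, neither of them a member). With 1 line fewer the genotypes separate more easily, so these counts without overlap cannot be set beside those of all 6 lines. The share over all genes without overlap was not computed for these fits. Taking the 12 arrays as independent called 154 genes and 0 members. With the line number as a replicate block 0 genes and 0 members passed between genotypes, and with the array number as a replicate block the 6-line F test called 5549 genes and 26 members, the test among wild-type lines 3295 and 16 and that among constitutively active lines 4386 and 25. Same-numbered lines correlated at 0.21, -0.27 and -0.18 in their deviations from the genotype means. Array differences of line pairs correlated between -0.26 and 0.31. Whether samples of the same number were processed together was not tested, and the labels do not say. Leaving out 1 array gave 25 to 27 members in the 6-line test, 13 to 17 among wild-type and 21 to 25 among constitutively active lines. With all arrays in the fit, 77.7%, 46.4% and 61.0% of all genes passed these tests, so most calls of members are shared with genes at large. Over 534 recomputed ranges of named genes, 513 stayed on the same side of the threshold, 14 lost and 7 gained the call, and those concerned Gclm, Gss, Prdx1, Keap1, Sod1, Sod2, Gpx1 and Gstm4, whose ranges were under 1; the cause was not tested. Signals near background limit what can be said of Nqo1, Gsr, Gstm4 and Txnrd3 in their dim lines.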
